A study of Mus musculus with 36 samples.

Results

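Wnt10b and 7 other genes for Wnt ligands (Wnt10a, Wnt7a, Wnt7b, Wnt5a, Wnt2, Wnt4 and Wnt9a) were followed through the brain RNA of Ndufs4 knockout and wild-type mice. They are 8 of the 19 Wnt ligand genes and of the 56980 genes in the count table. Wnt10b led the choice because of its difference between knockout and wild-type mice given vehicle, and its relatives were named with that comparison known. All values of the 8 genes in that comparison are therefore given as a description, with no test, and support nothing.

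The study sequenced polyA-selected RNA from 36 mice aged 37 to 45 days, 1 library each. They carried either the Ndufs4 knockout (KO) or the wild-type gene (WT). By gavage on 3 days in a row they received either vehicle or CP2, a small molecule that blocks mitochondrial complex I. Ndufs4 encodes a subunit of complex I, and mice without it are a model of Leigh-like mitochondrial disease. The labels call the tissue brain, and the design text names hippocampus and cortex. They do not describe the knockout allele, the strain or the vehicle. Titles carry the letter F or M: 5 mice each were KO vehicle F, WT vehicle F, KO CP2 F, WT CP2 F, KO CP2 M and WT CP2 M, and 3 each were KO vehicle M and WT vehicle M.

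Wnt ligands are secreted, lipid-modified glycoproteins. They bind Frizzled receptors, together with the co-receptors Lrp5 and Lrp6 when the signal runs through beta-catenin, or with Ror and Ryk receptors in beta-catenin-independent signalling. In the brain they guide patterning, axon growth and synapse formation, and Wnt7a and Wnt7b drive the growth of brain vessels and their barrier.

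Gene counts summed to between 46124548 and 88559920 per library. Ndufs4 itself stood at 30.1 to 37.3 CPM (counts scaled to a common library total) in KO F and 45.2 to 62.7 CPM in WT F, and at 27.4 to 39.1 CPM in KO M and 38.9 to 50.1 CPM in WT M, so its count was lower but not 0 in the knockout. Xist was at 438 to 797 CPM in all F libraries, and Ddx3y at 61.8 to 84.4 CPM in all M libraries. The library L291 (KO CP2 M) was at 47.2 CPM of Xist, apart from the other M libraries, and L266 of the same group differed most from its replicates in a chi-square comparison of counts. The ligand differences that rest most on KO CP2 M are also given without each. The summed level of 6 hippocampal CA markers was 231 to 405 CPM, of 6 dentate gyrus markers 36.9 to 140 CPM and of 6 cortical projection neuron markers 230 to 436 CPM. Markers of other regions were also present: striatal 156 to 969 CPM, thalamic 112 to 491 CPM and choroid plexus 196 to 3455 CPM. In bulk tissue, fewer cells of a type and less RNA per cell cannot be told apart.

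The 2 ligands that the results turn on are Wnt10b and Wnt7a, and the DNA just before their annotated starts is shown here so that both can be read beside the counts. Each window is the 250 bases upstream of the start, 5′ to 3′ on the gene's strand, from RefSeq on GRCm38.p6, with each CG dinucleotide in capitals.
Wnt10b, chr15:98778151-98778400, minus strand: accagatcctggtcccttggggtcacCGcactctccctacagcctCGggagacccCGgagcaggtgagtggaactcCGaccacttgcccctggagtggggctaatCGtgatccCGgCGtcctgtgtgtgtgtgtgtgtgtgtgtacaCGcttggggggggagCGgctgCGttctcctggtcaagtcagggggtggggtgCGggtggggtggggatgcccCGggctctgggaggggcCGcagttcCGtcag
Wnt7a, chr6:91411354-91411603, minus strand: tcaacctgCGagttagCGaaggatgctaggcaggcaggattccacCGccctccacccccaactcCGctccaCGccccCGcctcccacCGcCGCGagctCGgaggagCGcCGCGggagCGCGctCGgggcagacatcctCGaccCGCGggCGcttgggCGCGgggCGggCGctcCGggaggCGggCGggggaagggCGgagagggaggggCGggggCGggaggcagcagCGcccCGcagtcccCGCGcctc
The Wnt10b window held 14 CG dinucleotides and the Wnt7a window 34, against a median of 6 over 32851 such windows. The GC box GGGCGG, searched on both strands, was found 0 times before Wnt10b and 6 times before Wnt7a, and 32.7% of all windows held at least 1. The TCF-type motifs CTTTGAT (in 3.21% of windows) and CTTTGAA (in 4.46%) were in neither window. Among the other ligands in the promoter table, Wnt4 had 44 CG dinucleotides, Wnt9a 48 and Wnt2 20. The windows for 5 of the 8 genes were in that table. Motif matches are descriptions of letters, and no measurement of binding was made here.

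The 8 ligands spanned a wide range of levels. Per kilobase of annotated exon, the median level over the 36 libraries was 7.92 CPM for Wnt7b, 5.19 for Wnt4, 4.03 for Wnt7a, 3.85 for Wnt9a, 2.57 for Wnt10a, 2.01 for Wnt5a, 1.09 for Wnt2 and 0.286 for Wnt10b. Wnt10b, which activates beta-catenin signalling and is best known for promoting bone and restraining fat cell formation, was thus the lowest of the 8. It was also by far the most variable. Its coefficient of variation over all libraries was 143%, against 12.8% (Wnt4) to 30.3% (Wnt2) for the other 7, and its highest level was 40.9 times its lowest. Its counts ran from 19 to 732 per library, so every library held reads of it. All 8 genes passed the filter on low counts.

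Wnt10b was at 2.10, 2.33, 2.87, 7.62 and 14.6 CPM in KO vehicle F, a mean of 5.90 ± 5.35 (SD, n = 5). The WT vehicle F mice were at 0.399, 0.536, 0.591, 0.773 and 1.60 CPM, a mean of 0.780 ± 0.477 (SD, n = 5). The groups did not overlap: the lowest knockout lay above the highest wild type. The spread in the knockout came from L282 and L281, at 7.62 and 14.6 CPM, while the other 3 lay within 2.10 to 2.87 CPM. In KO vehicle M the values were 0.720, 1.61 and 2.95 CPM, a mean of 1.76 ± 1.12 (SD, n = 3), and in WT vehicle M they were 0.356, 0.542 and 0.597 CPM, a mean of 0.498 ± 0.126 (SD, n = 3). Here too the groups did not overlap, though the lowest knockout was close to the highest wild type. Of all genes tested, 4.7% did not overlap between KO and WT under vehicle in F, and 20.9% in M, where only 3 mice stood on each side.

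The fitted KO minus WT difference of Wnt10b under vehicle was 2.92 on the log2 scale in F (SE 0.56) and 1.82 in M (SE 0.72), and 2.37 as the mean of both (SE 0.46). Without L281 the F difference was 2.27, and without L282 it was 2.82. Without L322, the highest KO vehicle M mouse, the M difference was 1.21. Over the 36 fits that each left out 1 library the difference ranged from 2.27 to 3.36 in F and from 1.21 to 2.19 in M, and the lowest values came from leaving out the mice with the most Wnt10b.

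**Figure D1:**
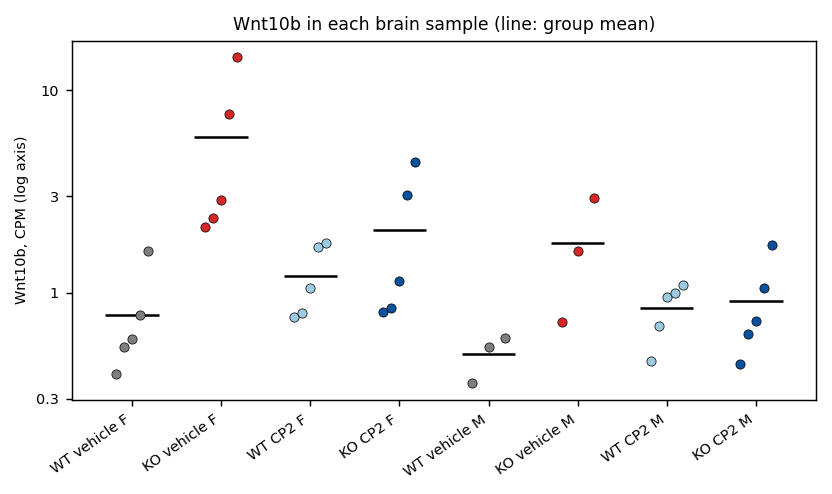
Wnt10b in each of the 36 libraries, in CPM on a log axis, by group. Points are mice and lines are group means: KO vehicle F spreads from 2.10 to 14.6 CPM and lies above all 5 WT vehicle F mice, while the CP2 groups of either letter overlap.

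Under CP2 no Wnt10b difference between genotypes passed the test. KO CP2 F mice were at 0.799, 0.837, 1.14, 3.04 and 4.42 CPM of Wnt10b, and WT CP2 F mice at 0.758, 0.796, 1.05, 1.69 and 1.77 CPM. KO CP2 M mice were at 0.443, 0.625, 0.728, 1.06 and 1.72 CPM, and WT CP2 M mice at 0.461, 0.685, 0.950, 0.995 and 1.10 CPM. In F, 2 knockouts lay above all wild types and 3 among them, and in M the genotypes were interleaved. The fitted difference was 0.76 in F (SE 0.53, adjusted p = 0.524) and 0.11 in M (SE 0.54, adjusted p = 0.934). Without L266 the M difference was 0.22, and without L291 it was 0.05. An exact two-sided permutation test of mean log2 CPM gave a difference of 0.48 with p = 0.405 in F (0.810 adjusted over the 2 tests) and 0.03 with p = 0.913 in M (0.913 adjusted), where 0.00794 is the smallest p that 5 against 5 allows. Without L227, the highest KO CP2 F mouse, the difference in mean log2 CPM in F was 0.12. Wnt10b was chosen for its difference under vehicle. The ligands were named with earlier results of these data known, so the CP2 tests are not shown to be independent of that choice.

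The groups in order of mean Wnt10b were KO vehicle F (5.90 CPM), KO CP2 F (2.05 ± 1.62), KO vehicle M (1.76), WT CP2 F (1.21 ± 0.484), KO CP2 M (0.914 ± 0.501), WT CP2 M (0.837 ± 0.260), WT vehicle F (0.780) and WT vehicle M (0.498). The gap between any neighbours in this order was smaller than the larger of their SDs, and the ranges of neighbours overlapped. In WT mice, CP2 minus vehicle was 0.69 on the log2 scale as the mean of F and M (SE 0.43). In KO mice CP2 minus vehicle was -1.53 in F (SE 0.52) and -0.96 in M (SE 0.60), and the difference between genotypes in the CP2 effect was -1.94 (SE 0.58). These 4 values reuse the vehicle mice that led to the choice of Wnt10b, so they carry no test.

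Markers of brain regions moved with part of the Wnt10b spread. Within KO vehicle F, the 2 mice with the most Wnt10b also had the highest summed level of 6 striatal markers, 654 CPM in L281 and 411 CPM in L282, against 178 to 230 CPM in the other 3. In KO vehicle M, L322 had both the most Wnt10b and the highest striatal sum, at 541 CPM. Across all 36 libraries the correlation of Wnt10b with the mean log2 level of striatal markers was 0.29, the highest of the 17 marker lists. Correlations further from 0 were negative, at -0.41 with oligodendrocyte, -0.40 with dentate gyrus, -0.36 with astrocyte, -0.33 with hippocampal CA and -0.30 with thalamic markers. WT CP2 F mouse L228, with a striatal sum of 889 CPM, was at 1.69 CPM of Wnt10b, near the top of its group (0.758 to 1.77 CPM). WT vehicle F mouse L295, with a striatal sum of 409 CPM, had the lowest Wnt10b of its group. The part of striatal tissue in the result was not tested. KO vehicle F mice had a hippocampal CA score (mean log2 CPM of 6 markers) of 3.74 ± 0.21 (SD, n = 5), and WT vehicle F mice one of 4.47 ± 0.28 (SD, n = 5). With that score as a covariate the Wnt10b difference was 2.14 in F and 2.16 in M.

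Genes beside Wnt10b on chromosome 15 were measured as well. In the annotation its neighbours are Arf3, a small GTPase gene on the same strand, and Wnt1, a ligand gene on the opposite strand. Arf3 was at about the same level in both genotypes, with a fitted KO minus WT difference of 0.01 under vehicle (SE 0.07, mean of F and M). Wnt1, the founding mouse Wnt gene, differed by 0.71 under vehicle and by 0.47 under CP2 (adjusted p = 0.314), and ranged from 0.406 to 2.39 CPM in KO vehicle F and from 0.382 to 1.38 CPM in WT vehicle F. In the annotation the gap to Arf3 is 7.498 kb and the gap to Wnt1 is 11.707 kb, so neither annotated gene overlaps Wnt10b.

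Wnt7a was the only one of the 8 ligands to pass the test between genotypes under CP2. Wnt7a signals to brain endothelium with the co-receptors Adgra2 and Reck and also promotes synapse formation. KO CP2 F mice were at 9.15, 9.77, 9.77, 12.4 and 12.7 CPM and WT CP2 F mice at 12.1, 12.9, 15.6, 15.7 and 17.99 CPM. KO CP2 M mice were at 7.71, 11.04, 11.2, 12.1 and 14.2 CPM and WT CP2 M mice at 11.4, 13.0, 14.6, 15.5 and 15.6 CPM. In F only 2 knockouts reached the wild-type range, and in M 2 of 5 did. Wnt7a fell by 0.39 log2 units in KO against WT under CP2, as the mean of F and M (SE 0.11, adjusted p = 0.0117 by edgeR's quasi-likelihood test over all genes). Within F it differed by -0.46 (SE 0.15, adjusted p = 0.0954) and within M by -0.32 (SE 0.15, adjusted p = 0.188), and neither passed alone. In that mean comparison 11.6% of all genes tested were called, 2972 of 25601, and 1 of the 8 ligands was. The 8 were named with earlier results of these data known, so this test is not shown to be independent of their naming.

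Without L266 the Wnt7a difference under CP2 was -0.44 (adjusted p = 0.00512), and without L291 it was -0.40 (adjusted p = 0.0128). The share of reads in the summary rows, which were not assigned to a gene (unassigned read share), also differed between these groups in M. It was 5.18% to 9.06% in KO CP2 and 9.05% to 13.2% in WT CP2. With that share as a covariate the difference was -0.46 (adjusted p = 0.00231). Over all 42 alternatives run it stayed called, with adjusted p from 0.00231 to 0.0325.

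Wnt7a lay the same way under vehicle. KO vehicle F mice were at 7.07, 9.15, 13.0, 13.2 and 13.3 CPM and WT vehicle F mice at 13.6, 14.2, 16.2, 16.3 and 16.8 CPM. KO vehicle M mice were at 7.06, 8.60 and 9.78 CPM and WT vehicle M mice at 11.7, 12.6 and 13.5 CPM. The genotypes did not overlap in either letter, as was true of 4.7% of all genes in F and 20.9% in M. The fitted difference was -0.52 as the mean of F and M (SE 0.12). Since the 8 ligands were named with this contrast in view, these vehicle values are a description. Tests of CP2 against vehicle for the ligands other than Wnt10b reuse the vehicle mice, so they are not independent of that naming. CP2 minus vehicle for Wnt7a was 0.05 in WT (adjusted p = 1) and 0.18 in KO (adjusted p = 0.435), and the difference between genotypes in the CP2 effect was 0.13 (SE 0.16, adjusted p = 0.764). By letter, CP2 minus vehicle in KO was -0.05 in F (SE 0.15, adjusted p = 0.950) and 0.41 in M (SE 0.18, adjusted p = 0.186). The F minus M difference was -0.46 (SE 0.23, adjusted p = 0.353). No change of the Wnt7a genotype gap with CP2 was detected, which does not show that there was none.

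**Figure D2:**
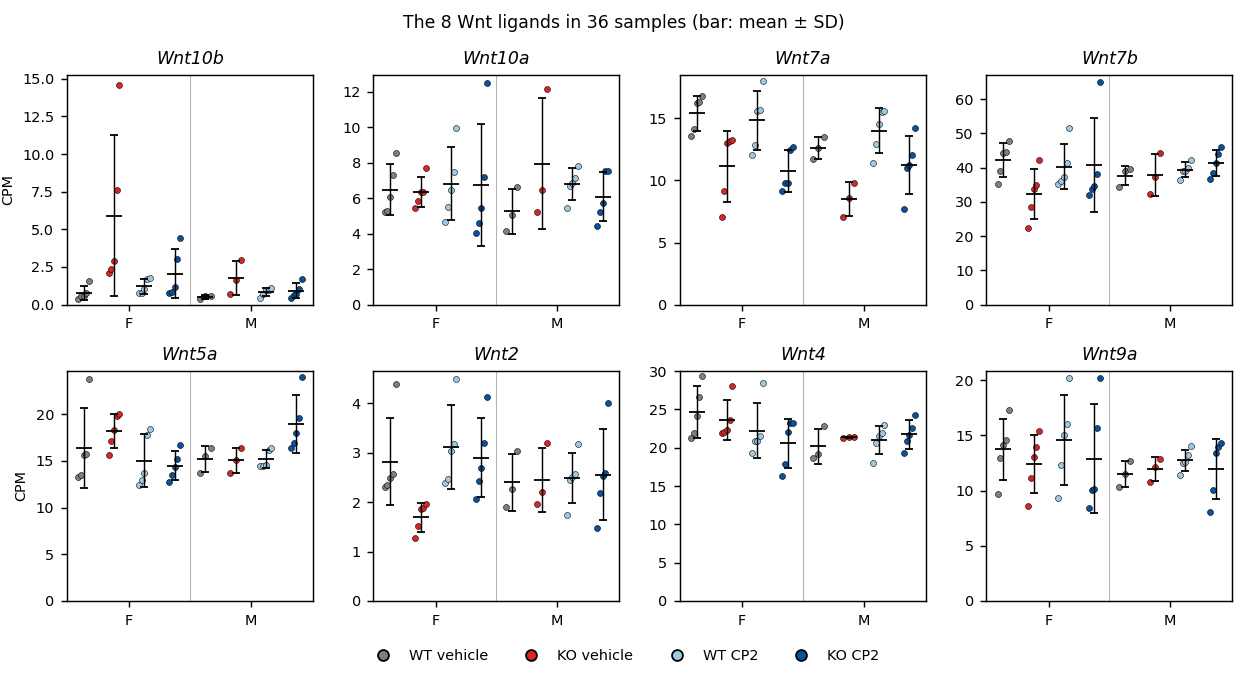
Level of each of the 8 Wnt ligands in CPM (linear axes from 0), by group and title letter. Points are mice and bars are mean ± SD: Wnt7a is lower in KO than in WT in all 4 pairs of groups, while Wnt10b is above 5 CPM in 2 mice, both KO vehicle F.

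Wnt7b, the close relative of Wnt7a and the most abundant of the 8, showed no such pattern. KO CP2 F mice were at 32.2, 33.9, 34.6, 38.1 and 65.1 CPM and KO vehicle F mice at 22.3, 28.4, 33.9, 34.8 and 42.1 CPM. A single mouse, L234, lay far above the rest. CP2 minus vehicle in KO F was 0.34 (SE 0.15, adjusted p = 0.405), and 0.10 without L234. Between genotypes under CP2 the difference was 0.04 (SE 0.11, adjusted p = 0.862). Under vehicle, KO F minus WT F was -0.39 (SE 0.15) and KO M minus WT M was 0.01 (SE 0.20).

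Wnt5a, which mostly acts without beta-catenin through Ror2, differed with CP2 in opposite directions in F and M knockouts. KO vehicle F mice were at 15.7, 17.1, 18.3, 19.8 and 20.02 CPM and KO CP2 F mice at 12.7, 13.5, 14.3, 15.2 and 16.7 CPM. KO vehicle M mice were at 13.7, 15.1 and 16.4 CPM and KO CP2 M mice at 16.4, 16.9, 17.9, 19.6 and 24.03 CPM. CP2-treated knockouts thus lay mostly below vehicle in F and mostly above it in M. CP2 minus vehicle was -0.33 in KO F (SE 0.13, adjusted p = 0.3002) and 0.33 in KO M (SE 0.15, adjusted p = 0.204), and neither passed. The KO M difference was 0.35 without L266 and 0.23 without L291. The F minus M difference was -0.66 (SE 0.20, adjusted p = 0.0870), just short of the threshold, against a background of 0.691% of genes called.

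Wnt5a also stood out between genotypes in M under CP2, where KO mice at 16.4 to 24.03 CPM and WT mice at 14.4 to 16.4 CPM met only at the edge and did not overlap. The difference was 0.32 (SE 0.13, adjusted p = 0.107) and did not pass, and 11.1% of all genes did not overlap in that comparison. Without L266 it was 0.34, and without L291, the highest mouse, it was 0.22. Wnt5a followed the markers of meningeal fibroblasts: across the 36 libraries its correlation with the mean log2 level of 7 such markers was 0.77, and the summed markers were at 163 to 259.2 CPM in KO CP2 M and 94.3 to 163 CPM in WT CP2 M. Their part in the Wnt5a values was not tested.

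Wnt2, a beta-catenin-activating ligand, was next to Wnt10b in scarcity. KO vehicle F mice were at 1.27, 1.52, 1.85, 1.88 and 1.97 CPM, below all 5 KO CP2 F mice at 2.06, 2.43, 2.68, 3.19 and 4.13 CPM. CP2 minus vehicle in KO F was 0.77 (SE 0.24, adjusted p = 0.176) and did not pass, although the groups did not overlap, as was true of 1.04% of all genes. The KO vehicle F mice also lay below all 5 WT vehicle F mice, at 2.31 to 4.40 CPM. Of all genes, 4.7% did not overlap there, and the Wnt2 difference of -0.73 (SE 0.24) is a description. Both differences rest on the same KO vehicle F mice, so the CP2 test is not independent of the naming of the ligands. In M the KO CP2 minus KO vehicle difference was 0.06 (SE 0.28, adjusted p = 0.936).

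Wnt10a, Wnt4 and Wnt9a showed no difference that passed any test. Wnt10a, the nearest relative of Wnt10b and a gene of tooth and skin development, had group means from 5.27 ± 1.27 CPM (WT vehicle M) to 7.93 ± 3.68 CPM (KO vehicle M), and 1 mouse, L310 at 12.1 CPM, raised the latter. Its KO minus WT difference under CP2 was -0.09 (SE 0.17, adjusted p = 0.819). Wnt4, a gene of kidney and gonad development, had group means from 20.2 ± 2.29 CPM (WT vehicle M) to 24.6 ± 3.38 CPM (WT vehicle F) and differed by -0.03 (SE 0.08, adjusted p = 0.858). Wnt9a, a gene of joint formation, had group means from 11.5 ± 1.19 CPM (WT vehicle M) to 14.6 ± 4.07 CPM (WT CP2 F) and differed by -0.14 (SE 0.14, adjusted p = 0.622).

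Counted over the ligands, KO minus WT under vehicle met the threshold for 1 of 8 in F (background 4.96% of genes), 0 in M (0.516%) and 2 for the mean (6.67%), Wnt10b and Wnt7a, and nothing is read from these counts. KO minus WT under CP2 called 0 of 8 in F (2%), 0 in M (9.99%) and Wnt7a alone for the mean. The CP2 effect was read for the 7 ligands other than Wnt10b. Its tests reuse the vehicle mice of the comparison known when the ligands were named, so they are not independent of that choice. In WT the CP2 effect called 0 of 7, as it called 0% of all genes. In edgeR, 0 of them were at an unadjusted p under 0.05 there for the mean, 1031 genes of all tested were, and DESeq2 also called 0. In KO 0 were called in F (0.0859%), in M (5.1%) and for the mean (3.91%), and DESeq2 called 0. In edgeR 3, 2 and 1 of the 7 were at an unadjusted p under 0.05 there. Of all 25601 genes tested, 2827 were in F, 4977 in M and 4641 for the mean, and nothing is read from these counts. The difference between genotypes in the CP2 effect called 0 of 7 (0.715%), with 0 at an unadjusted p under 0.05, against 3736 of all genes. No effect of CP2 on these 7 ligands in wild-type mice was thus detected with this number of mice.

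**Figure D3:**
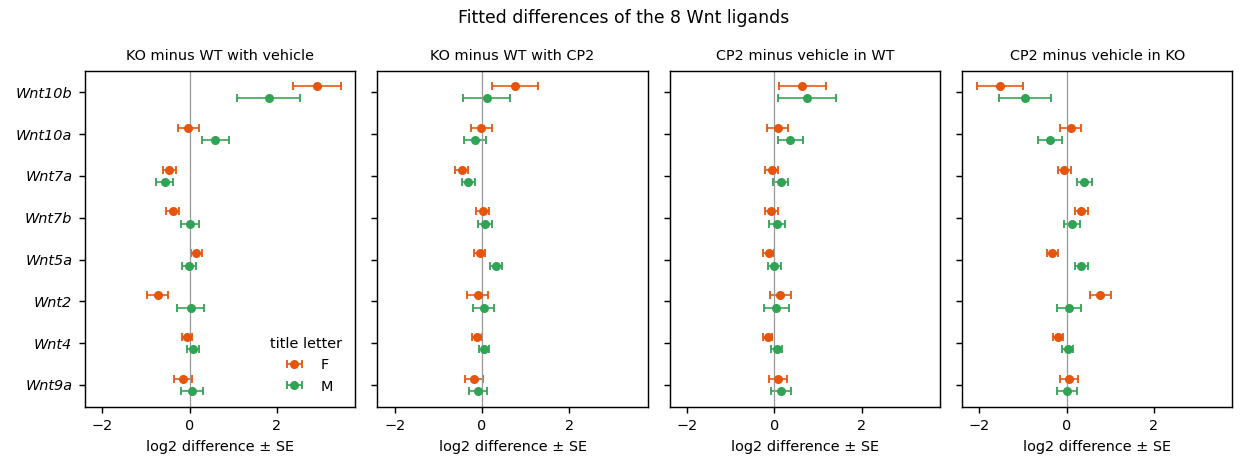
Fitted log2 differences ± SE of the 8 Wnt ligands in 4 comparisons, with F and M mice apart. Wnt10b lies far right of 0 under vehicle (2.92 and 1.82) and closer to 0 under CP2 (0.76 and 0.11), Wnt7a lies left of 0 in both genotype comparisons, and the Wnt5a points of KO mice under CP2 lie on opposite sides of 0.

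The other 11 Wnt ligand genes were accounted for in the same fit. Wnt3a and Wnt8a had at most 10 counts in any library and were not tested. For the other 9, 0 were called in the mean over F and M in any of the 5 comparisons. Wnt11 came nearest, at 0.78 higher in KO under CP2 (SE 0.27, adjusted p = 0.0523), with a mean of 0.873 CPM in KO CP2 F and 0.619 CPM in WT CP2 F. The median difference of the 9 was 0.26 in KO against WT under CP2, where the median of all genes was 0.01. Under vehicle it lay the other way, at -0.23, where the median of all genes was 0.02.

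Genes that make, receive or relay the Wnt signal were read from lists of 79 genes outside the 8 ligands, of which 75 were tested. Under CP2, 5 were higher and 8 lower in KO than in WT, where 5.54% of all genes were called higher and 6.07% lower, and their median difference was 0.02. Among 18 receptors and co-receptors, 3 were higher and 3 lower. Fzd5, a Frizzled receptor, rose by 0.68 log2 units (SE 0.18, adjusted p = 0.01), and the co-receptor Ptk7 by 0.28 (SE 0.07, adjusted p = 0.00799). The receptor Fzd9 fell by 0.44 (SE 0.11, adjusted p = 0.00735), and Fzd6 rose by 0.30 (adjusted p = 0.0251), a call lost in 5 of 36 fits that each left out 1 library.

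Inhibitors and relays moved in both directions. Apcdd1, a membrane inhibitor and target gene of the pathway, rose by 0.50 (SE 0.10, adjusted p = 0.000505), from 25.9 to 37.4 CPM over the WT CP2 mice to 27.6 to 55.2 CPM over the KO CP2 mice. The lowest of those knockouts was L291. Frzb, a secreted Frizzled-like inhibitor, fell by 0.51 (adjusted p = 0.0404), a call lost in 11 of the 36 fits. Of 19 genes of intracellular signalling, Ctnnb1, which encodes beta-catenin, rose by 0.14 (adjusted p = 0.0245, lost without L234) and 3 fell: Dvl3, a Dishevelled protein, by 0.19 (adjusted p = 0.00236), and the nuclear co-activators Bcl9l by 0.17 and Pygo2 by 0.14, whose calls were lost in 10 and 9 of the 36 fits. Of 12 target genes, Ccnd1, which encodes cyclin D1, fell by 0.36 (SE 0.09, adjusted p = 0.00372) and Apcdd1 is named above. Leaving out L266 lost the calls of Fzd6 and Bcl9l, and leaving out L291 those of Frzb, Bcl9l and Pygo2. With the unassigned read share as a covariate, Ctnnb1 (0.098, adjusted p = 0.107) and Bcl9l (-0.15, adjusted p = 0.0873) also lost their calls. For Fzd5, Fzd9, Ptk7, Apcdd1, Dvl3 and Ccnd1, none of the 36 fits lost the call.

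Cell type markers differed between the same groups. Of 5 microglial markers 3 were called higher in KO under CP2 in the mean of F and M, and of 6 cerebellar markers 4 were. Of all genes 5.54% were called higher there, and each of the other marker lists had fewer genes called higher. The mean log2 level of the cerebellar markers in KO CP2 F was uneven between mice, at 2.50 ± 2.84 (SD, n = 5), from -0.08 to 6.52. The summed cerebellar markers were at 99.9 to 638 CPM in KO CP2 F and 90.0 to 135 CPM in WT CP2 F, and the microglial sum was at 314 to 405 CPM in KO CP2 M and 249 to 306 CPM in WT CP2 M. Their part in the pathway values was not tested.

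Under vehicle, 0 of the 75 pathway genes met the threshold as higher in KO and 5 as lower: Wls, which carries Wnt proteins to the cell surface (-0.22), Frzb (-0.66), the inhibitor gene Kremen2 (-0.87), Pygo2 (-0.17) and Ccnd1 (-0.33). Of all genes 2.87% were called higher and 3.8% lower there, and each of these 5 missed the threshold in 4 to 26 of the 36 fits that left out 1 library. CP2 minus vehicle called 0 of the 75 in WT, as it called 0% of all genes. In KO it called 1 of the 75, where 3.91% of all genes were called. That gene was Draxin, a secreted guidance protein that also blocks Wnt signalling, which rose by 0.80 (SE 0.21, adjusted p = 0.0212). That call was lost without L234 (adjusted p = 0.0631), without L319 (0.0824) and without L322 (0.0991). It was also lost with the unassigned read share in the model (0.461) and with the title number as covariate (0.322). Of all genes, those models called 0 and 51 in that comparison, against 1002 in the main model, so these losses are not particular to Draxin. The Draxin call was kept without L266 and without L291.

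**Figure D4:**
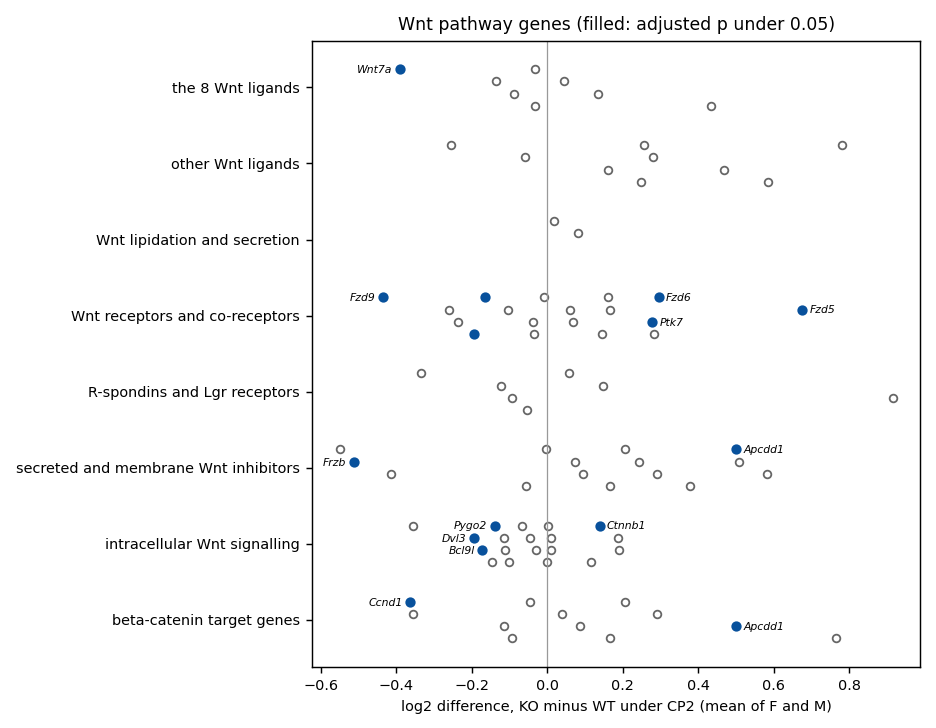
Fitted log2 difference, KO minus WT under CP2 (mean of F and M), of Wnt pathway genes by role. Filled points passed an adjusted p of 0.05 and carry the names used in the text: Wnt7a is the filled ligand, and receptors, inhibitors and relays have filled points on both sides of 0.

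Across the 36 libraries the genes most like each ligand were found by the Pearson correlation of log2 CPM among 15419 candidates, given as a description over libraries that share groups and depth. For Wnt10b they were Ggnbp2 (0.80), Fbxw2 (0.80), Ppp1r7 (0.78), Ldb1 (0.78) and Zfp354c (0.77). After group means were taken out, these correlations were 0.61, 0.73, 0.73, 0.71 and 0.54. Both sets of values come from the libraries on which the 5 genes were picked. For Wnt7a the first was Ccnd1 (0.80), followed by Kcnmb1 (0.78) and Yars2 (0.77). For Wnt5a they were Slc6a20a (0.82), Colec12 (0.82) and Cyp1b1 (0.81), for Wnt9a Pld3 (0.85), Stx1a (0.85) and Acta1 (0.83), and for Wnt7b 2700081O15Rik (0.77), Bop1 (0.76) and Aif1 (0.75). For Wnt2 they were Tpm3 (0.77), Add1 (0.74) and Ncald (0.73), for Wnt4 Ehbp1l1 (0.74), Gabbr1 (0.68) and Ccdc51 (0.68), and for Wnt10a Mylk3 (0.62), Adra1b (0.62) and Ephb6 (0.60).

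Among the ligands themselves the pairwise correlations ran from -0.51 for Wnt5a with Wnt2 to 0.52 for Wnt7b with Wnt2. Wnt10b was at -0.40 with Wnt7a and 0.11 with its relative Wnt10a. Wnt9a followed pan-neuronal markers (0.73), as did Wnt2 (0.70), while Wnt5a ran against them (-0.54).

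**Figure D5:**
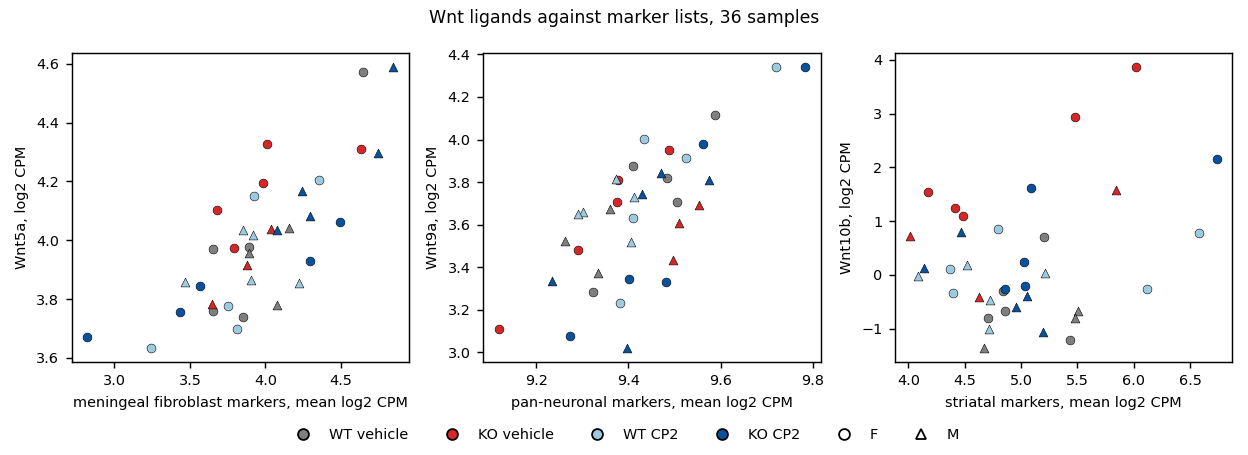
Log2 CPM of Wnt5a, Wnt9a and Wnt10b against the mean log2 CPM of a marker list in the same library (36 points, colour for genotype and treatment, circles F and triangles M). Wnt5a rises with meningeal fibroblast markers (0.77) and Wnt9a with pan-neuronal markers (0.73), while the highest Wnt10b mice, both KO vehicle F, lie right of the other KO vehicle F mice on the striatal axis.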

How the data were processed

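The deposited table holds raw read counts per Ensembl gene for 36 libraries, made by the authors with STAR and HTSeq on GRCm39, per the submitters' processing notes; versions, strand setting and read filters are not given in the sources used here. RNA was extracted with Trizol, enriched for polyA and made into TruSeq libraries, per the labels' protocols. The 5 summary rows hold reads not assigned to a gene, 5.09% to 13.2% of a library's reads (the unassigned read share). These rows were left out, and 56980 genes remained, of which 52073 (91.4%) got a symbol from GENCODE M21. All table columns matched a sample title.

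Groups came from the genotype and treatment labels and the letter in the title. CPM was computed here on TMM library sizes, and log2 CPM used a prior count of 2. Differences were tested with edgeR 4.0.16 (R 4.3.3) by quasi-likelihood (filterByExpr on the 8 groups, robust fit, all 36 libraries, 1 coefficient per group) over 25601 genes, with Benjamini-Hochberg adjustment per comparison and a threshold of 0.05. Means over F and M weight both equally. DESeq2 1.42.0 was an alternative. Exact permutation tests used SciPy 1.17.1. The fit was tested on simulated data. Each library is labelled as a mouse of its own, but nothing describes litters or days, so p-values measure the spread between these libraries. In 66 pairs of replicates the mean chi-square per gene was 12.6 to 126, so no pair agreed within sampling noise. Intervals between libraries include counting error, which was not separated.

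The 8 ligands and all gene lists were chosen with earlier results of these data known. All 8 are named. Other pathway genes are named where they passed the threshold in the mean of F and M, up to 4 per list and comparison with the largest difference, and the most similar genes by correlation were the first 5 for Wnt10b and 3 for the others among tested genes with a mean of at least 1 CPM. Promoter windows came from RefSeq on GRCm38.p6 and exon lengths and gene neighbours from GENCODE M21, which is not the build of the counts, so no coordinates of counted genes are given.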

Additional observations from a re-analysis of the deposited data

Results flagged for a closer look

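In 5 of 48 groups of 5 mice (8 ligands in 6 groups), 1 mouse lay far from its group, by a gap to the nearest mouse of more than 0.71 of the group's range. Normally distributed values would give about 2.4 such groups, and CPM values were not shown to be normal. The ligands share the same mice, and all 5 flagged values lay above the rest of their group. Wnt7b was at 65.1 CPM in L234 of KO CP2 F, where the other 4 lay at 32.2 to 38.1 CPM. Wnt5a was at 23.8 CPM in L278 of WT vehicle F, against 13.3 to 15.7 CPM in the others. Wnt2 was at 4.40 CPM in L277 of the same group, against 2.31 to 2.57 CPM. Wnt4 was at 28.1 CPM in L279 of KO vehicle F, against 21.9 to 23.6 CPM, and at 28.5 CPM in L228 of WT CP2 F, against 19.3 to 21.5 CPM. No Wnt10b value met this rule. In KO vehicle F both L281 and L282 were high.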

How the results depend on the processing

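Of 5783 alternative values, 5633 kept their side of the threshold or, where counts or untested values, stayed near the main value. No called value changed sign, while 214 called in neither fit did. Wnt10b, KO minus WT under vehicle, ranged from 2.14 to 3.36 in F, 1.21 to 2.19 in M and 2.04 to 2.59 as the mean. The count of ligands past the threshold under vehicle in F was 0 with hippocampal CA score as covariate, 2 with the title number as a covariate, 3 with DESeq2, and 1 to 2 when 1 library was left out. Under CP2 in F it was 1 with the title number as a covariate and 0 to 1 when 1 library was left out (Wnt7a, adjusted p = 0.0488 without L234). In fits of the same letter only, 1 ligand passed under vehicle in M, with 772 of all genes against 132 in the main model. Under CP2 in M such fits called 1 (Wnt5a, adjusted p = 0.0287), with 3892 of all genes against 2558. They give no mean of F and M. With the unassigned read share in the model, 1 ligand in place of 2 passed under vehicle in the mean. Without that share, DESeq2 called 1 F minus M difference of the CP2 effect in KO (Wnt5a, -0.65, adjusted p = 0.0396). It called 705 of all genes there, and edgeR 177. With the unassigned read share again in the model, the lists for secretion, inhibitors, intracellular signalling and targets had 0 calls under vehicle. Under CP2 in that model, other ligands had 1, inhibitors 4 and intracellular signalling 2. For CP2 minus vehicle in KO, inhibitors had 0 in that model. In the mean of F and M, that model called far fewer of all genes under vehicle than the main model. It called 0 of all genes for CP2 minus vehicle in KO. The losses in these comparisons are thus not particular to the Wnt ligands or lists. Between genotypes under CP2 it called about as many of all genes as the main model. The causes were not tested. The alternatives on named pathway genes were chosen after seeing the data. No paired analysis was possible because no replicate number is shared between groups.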
